A study of Mus musculus with 8 samples.

Results

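The imprinted growth genes described here are 10 mouse genes: H19, Meg3, Rian, Mirg, Dlk1, Peg3, Plagl1, Grb10, Mest and Ndn. They were chosen by name from the imprinted genes known to act together in growth, by a rule that uses no measured value. Earlier results of these data were known when the choice was made. Of these 10 genes, 8 had a probe set assigned to that gene alone, out of 22180 genes measured in this way, while H19 and Mirg were on the array only through probe sets shared with microRNAs. Affymetrix Mouse Gene ST arrays measured total RNA of C2C12, a line of mouse myoblasts that form multinucleate muscle fibres, or myotubes, in the dish. All cells carried a retrovirus with a short hairpin RNA and were differentiated into myotubes. The SiBc groups carried a hairpin against Baf60c (gene symbol Smarcd3), a muscle-enriched subunit of the BAF chromatin remodelling complex, and the Scrb groups carried a scrambled control hairpin. Cultures then stood for 12 h in medium with 10 mM or 1 mM glucose. The 4 groups, SiBc at 10 mM, SiBc at 1 mM, Scrb at 10 mM and Scrb at 1 mM glucose, held 2 arrays each, which the series design calls independent biological replicates. All cells came from 1 established line, and whether each shRNA was carried by a pool or a clone was not given in the sources used here.

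Imprinted genes are expressed mainly from the copy inherited from 1 parent, and differential DNA methylation at imprinting control regions sets which copy is active. Several of them, among them the zinc-finger factor Plagl1 and the noncoding RNA H19, form a coexpressed network that is known to restrain or promote growth in the embryo and in muscle after birth. Many are silenced or reduced in adult tissue, and H19, Igf2, Dlk1 and Peg3 are known to be active in developing or regenerating muscle.

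Some of these transcripts carry microRNAs, and 2 such loci bear on the results. H19 is the host of miR-675, and the probe set for H19 is shared with it, so a value of that probe set cannot be assigned to the long RNA or to the microRNA. Mir679 lies in the Dlk1-Dio3 cluster of small RNAs, and its probe set was the only one of that cluster to pass the test in any comparison. Whether the probe sets named for these microRNAs read the mature forms or longer RNAs was not tested, so no level of a mature microRNA is given. The mature sequences of miR-675 and miR-679 (RefSeq, GRCm38.p6) are given 5′ to 3′ with the seed, the bases that pair with targets, in capitals.
mmu-miR-675-5p: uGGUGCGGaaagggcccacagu
mmu-miR-675-3p: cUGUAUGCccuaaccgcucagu
mmu-miR-679-5p: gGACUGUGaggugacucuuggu
mmu-miR-679-3p: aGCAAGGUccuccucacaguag
None of these 4 shared a seed with another. Among the 1679 mature sequences listed, only miR-7221-3p had a seed found here, that of miR-679-5p.

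The values are log2 expression values from RMA, a method that normalizes arrays to a common distribution, so a difference between groups is a log2 fold change. Replicate arrays correlated at 0.987 to 0.990 across genes, arrays of different groups at 0.939 to 0.984. The probe set shared by Chpf2 and Smarcd3, which includes the knockdown target, read 3.90 and 4.49 in SiBc against 6.27 and 6.09 in Scrb at 10 mM glucose. At 1 mM it read 3.01 and 2.77 in SiBc against 5.62 and 5.40 in Scrb. The SiBc minus Scrb difference was -1.98 at 10 mM and -2.62 at 1 mM. With glucose this probe set rose by 1.31 in SiBc, which was called by the test described below, and by 0.67 in Scrb, which was not. The 2 glucose responses differed by 0.64 ± 0.30 (log2 change ± SE), which was not called. Of the 18 myotube markers listed, all 18 were measured above the filter. With glucose 17 of them rose in SiBc and 13 in Scrb, beside 14.5% and 13.2% of all genes tested. With the knockdown 10 fell at 10 mM and 13 at 1 mM, beside 0.691% and 1.25% of all genes. The mean log2 level of these markers was 7.74 and 7.75 in SiBc at 10 mM, and 6.45 and 6.49 in SiBc at 1 mM. In Scrb it was 8.74 and 8.89 at 10 mM, and 7.90 and 7.93 at 1 mM. Of 11 markers of undifferentiated myoblasts, 5 rose and 2 fell with glucose in SiBc, and 3 rose and 2 fell in Scrb. The filter left 5 of 7 adipocyte markers, without Fabp4 and Lep, and 3 of 8 macrophage and endothelial markers. With glucose, the adipocyte markers had 1 called higher and 1 lower in SiBc and 1 lower in Scrb. The macrophage and endothelial markers had 2 lower in SiBc, Ptprc and Cd68. Beside these and the myoblast counts, 14.5% of all genes tested were called higher and 10.6% lower in SiBc. In Scrb 13.2% were called higher and 12.1% lower. In such bulk samples, fewer cells of a type and less RNA per cell cannot be told apart.

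Changes were tested with limma, an empirical Bayes linear model, over 13308 genes whose mean reached 2.30, the 40th percentile. A gene was called at a Benjamini-Hochberg adjusted p under 0.05 over all of them. Of the members, 4 passed this filter (Peg3, Mest, Grb10 and Ndn) and 4 did not (Meg3, Rian, Dlk1 and Plagl1). As a scale for the absence of signal, 1088 olfactory receptor genes, a family expressed mainly in the nose, had a median group mean of 1.35 and a 95th percentile of 2.41. The 4 tested members were also the 4 with any group mean above 2.41, but that bound is close to the filter of 2.30, so this is no separate check. Of the olfactory receptor genes, 62 passed the filter, and the 99th percentile of their group means was 3.44. Peg3 and the probe set shared by H19 and Mir675 lay far above both percentiles on all 8 arrays. Mest lay between 3.08 and 4.12, with Scrb group means of 3.23 at 10 mM and 3.33 at 1 mM, below 3.44. The rest lay near or below 2.41.

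**Figure D1:**
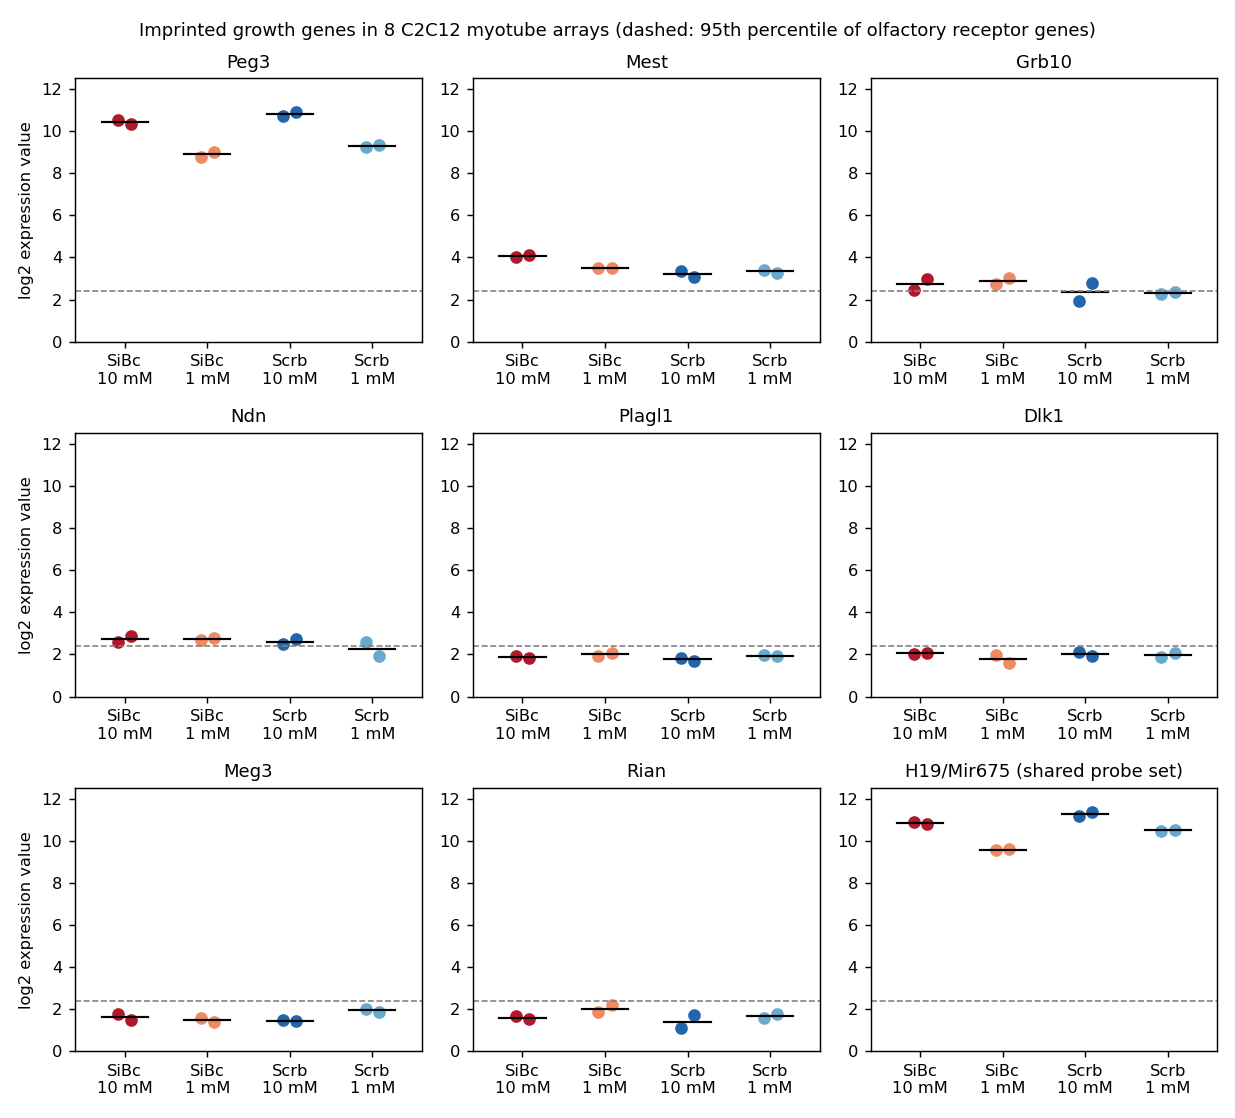
Log2 expression value (vertical axis) of 8 members and of the probe set shared by H19 and Mir675 in each of the 4 groups (horizontal axis). Points are single arrays, n = 2 per group, black bars are group means, and the dashed line is the 95th percentile of olfactory receptor genes, 2.41. Peg3 and H19/Mir675 lie at 8.78 or above on every array, with both 10 mM groups above both 1 mM groups.

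Glucose raised 1 of the 4 tested members in Scrb, against 25.3% of all genes tested, and 2 of 4 in SiBc, against 25.1%. Split by direction, 13.2% of genes were called higher and 12.1% lower in Scrb, and 14.5% higher and 10.6% lower in SiBc. With so large a share of all genes responding, these counts do not set the members apart. Of the SiBc calls 57.9% were higher, a share that came to 46.9% with each array centred on its median. Peg3 rose in both backgrounds and Mest in SiBc. Knockdown moved 1 member, Mest, which was higher in SiBc at 10 mM. The background there was 1.12%, with 0.428% called higher and 0.691% called lower. At 1 mM no member of the 4 was called by limma (1.49% of genes, 0.233% higher and 1.25% lower), and Peg3 alone had an unadjusted p under 0.05. For the difference between the 2 glucose responses, the interaction, 0% of genes were called by limma, and 1049 of 13308 had an unadjusted p under 0.05.

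Peg3 encodes a large zinc-finger protein, also known as PW1, that is expressed from the paternal copy and is known from muscle stem and interstitial cells. It read 10.54 and 10.33 in SiBc at 10 mM, against 8.78 and 9.0 in SiBc at 1 mM. It read 10.70 and 10.88 in Scrb at 10 mM, against 9.24 and 9.35 in Scrb at 1 mM. The 4 arrays at 10 mM thus lay above the 4 at 1 mM with no overlap, whichever hairpin the cells carried. The glucose response was 1.55 ± 0.15 (log2 change ± SE, n = 2 per group) in SiBc, a 2.92-fold rise with a limma adjusted p of 0.000585. In Scrb it was 1.50 ± 0.15, a 2.82-fold rise with a limma adjusted p of 0.000772. The responses differed by 0.05 ± 0.21, with a 95% confidence interval of -0.45 to 0.55, so a difference of up to that size in either direction cannot be seen here.

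Within each glucose level, Peg3 was lower in SiBc than in Scrb on every array, by a small amount that did not pass the test. The difference, SiBc minus Scrb, was -0.36 (95% confidence interval -0.71 to -0.000174) at 10 mM and -0.40 (-0.76 to -0.05) at 1 mM. The limma adjusted p was 0.368 at 10 mM and 0.256 at 1 mM. The myotube markers, given above, rose with glucose as Peg3 did, and so did others. Of the 10 fibroblast and smooth muscle markers tested, 7 rose with glucose in SiBc and 8 in Scrb. Of all genes, 14.5% were called higher in SiBc and 13.2% in Scrb, so both marker lists rose more often than genes in general. The mean log2 levels of these 10 markers were 8.33 and 8.41 in SiBc at 10 mM, and 7.29 and 7.34 in SiBc at 1 mM. In Scrb they were 8.06 and 8.09 at 10 mM, and 7.05 and 7.02 at 1 mM. Tcf21 and Thy1 of that list were below the filter, and the part of either marker list in the Peg3 result was not tested.

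A second probe set, shared by Peg3 and its antisense transcript Peg3os, also rose. It read 5.53 and 5.07 in SiBc at 10 mM, against 2.92 and 3.99 in SiBc at 1 mM. It read 5.93 and 6.0 in Scrb at 10 mM, against 3.32 and 4.18 in Scrb at 1 mM. Its replicates at 1 mM lay further apart than those of Peg3 itself, but the glucose levels did not overlap. The rise was 1.84 ± 0.39 in SiBc, 3.58-fold with a limma adjusted p of 0.0135, and 2.22 ± 0.39 in Scrb, 4.64-fold with a limma adjusted p of 0.00659. The SiBc call was lost without SiBc replicate 1 at 1 mM (1.31, adjusted p = 0.0552) and without SiBc replicate 1 at 10 mM (1.61, adjusted p = 0.0834). The knockdown differences, -0.67 at 10 mM and -0.29 at 1 mM, were not called.

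Peg3 stands in an imprinted domain of mouse chromosome 7 with Zim1, another zinc-finger gene, and Usp29, a ubiquitin-specific protease gene. Zim1 read 8.19 and 8.50 in SiBc at 10 mM, against 6.33 and 6.40 in SiBc at 1 mM. It read 9.31 and 9.12 in Scrb at 10 mM, against 6.59 and 7.19 in Scrb at 1 mM. The response was 1.98 ± 0.22 in SiBc, 3.93-fold with a limma adjusted p of 0.000849, and 2.33 ± 0.22 in Scrb, 5.02-fold with a limma adjusted p of 0.000545. Zim1 was the most strongly responding of the 37 other imprinted genes tested, by p as well as by size, in both backgrounds. As with Peg3, its SiBc values lay below its Scrb values at both glucose levels, by -0.87 at 10 mM (limma adjusted p = 0.130) and -0.52 at 1 mM (limma adjusted p = 0.295), without a call, although the 10 mM difference was called with the 60th percentile as filter (adjusted p = 0.0478) and with trend and robust variances (0.0129).

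Usp29 was much dimmer, and both of its SiBc values at 1 mM lay below the olfactory receptor bound of 2.41. It read 3.70 and 2.70 in SiBc at 10 mM, against 1.92 and 2.28 in SiBc at 1 mM, a change of 1.10 ± 0.33 that was called (2.15-fold, limma adjusted p = 0.0455). It read 3.78 and 3.42 in Scrb at 10 mM, against 2.92 and 2.59 in Scrb at 1 mM, a change of 0.84 ± 0.33 that was not (limma adjusted p = 0.103). The SiBc call was lost in 5 of 9 alternative settings, among them without SiBc replicate 1 at 10 mM (0.60, adjusted p = 0.187), without SiBc replicate 1 at 1 mM (0.92, 0.180) and without SiBc replicate 2 at 1 mM (1.28, 0.0810).

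The 8 nearest tested genes around Peg3 in RefSeq order, 4 on each side, were examined after the values were seen. Of these, 4 were called higher with glucose in SiBc and 2 in Scrb, where 14.5% and 13.2% of all genes were, and limma called none in the knockdown comparisons, where 1 at 10 mM and 3 at 1 mM had an unadjusted p under 0.05. The zinc-finger gene Zfp667 changed by 1.10 in SiBc (limma adjusted p = 0.0294) and 1.30 in Scrb (0.0160), and Zfp28 by 1.19 in SiBc (0.0480), against 0.75 in Scrb (0.170), which was not called. The other 4, Olfr1348, Aurkc, Zfp954 and Zfp418, were not called in either background.

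**Figure D2:**
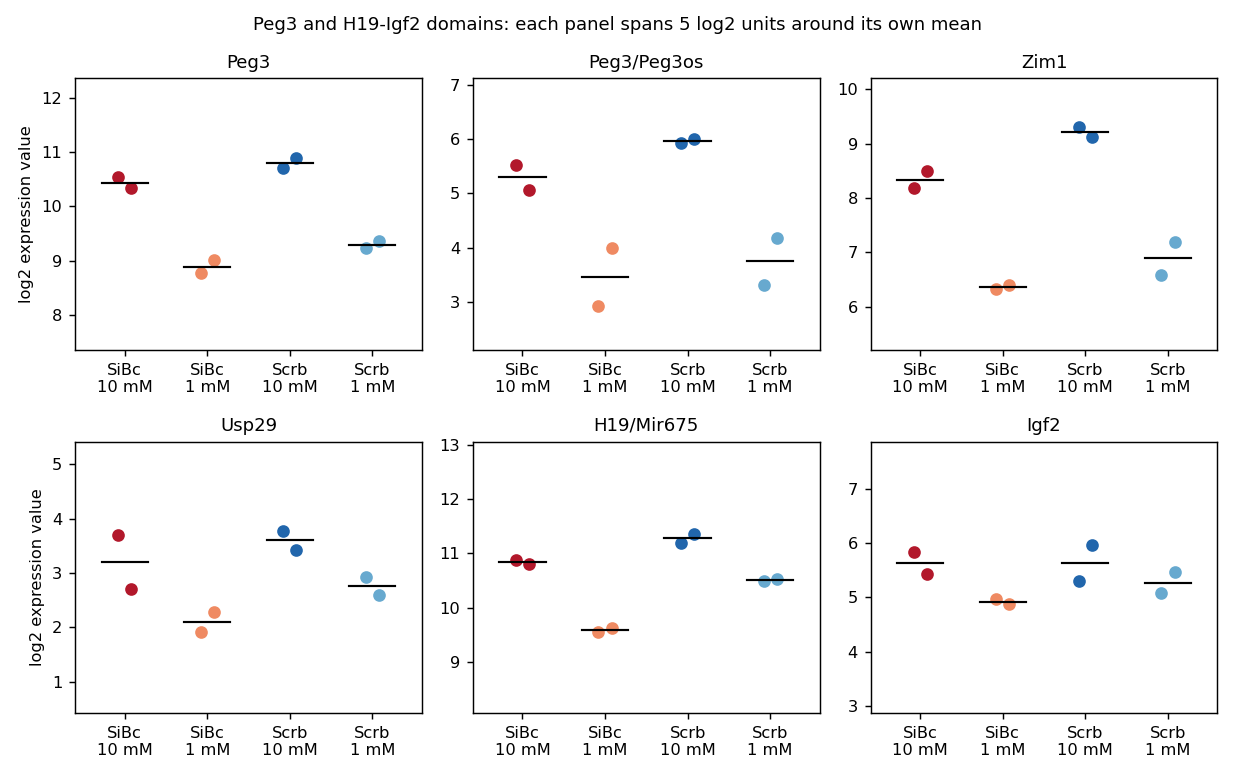
Log2 expression value (vertical axis, 5 log2 units around each panel's own mean) of Peg3, the Peg3/Peg3os probe set, Zim1 and Usp29 of the Peg3 domain, and of H19/Mir675 and Igf2, in the 4 groups (horizontal axis). Points are single arrays, n = 2 per group, and bars are group means. In Peg3, Zim1 and both shared probe sets every 10 mM array lies above the 1 mM arrays of the same hairpin, while Igf2 overlaps in Scrb.

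The Peg3 start region is shown because Peg3 and Usp29 are read from it in opposite directions and both lay higher at 10 mM glucose, and that of Zim1 is shown for comparison. Each window runs from 250 bases before the RefSeq transcription start to 50 after it (GRCm38.p6). The Peg3 window is chr7:6730370-6730669 on the minus strand and that of Zim1 is chr7:6696383-6696682 on the minus strand. Capitals mark the cyclic AMP response element TGACGTCA and the CCAAT box, here in its reverse form ATTGG.
Peg3 promoter: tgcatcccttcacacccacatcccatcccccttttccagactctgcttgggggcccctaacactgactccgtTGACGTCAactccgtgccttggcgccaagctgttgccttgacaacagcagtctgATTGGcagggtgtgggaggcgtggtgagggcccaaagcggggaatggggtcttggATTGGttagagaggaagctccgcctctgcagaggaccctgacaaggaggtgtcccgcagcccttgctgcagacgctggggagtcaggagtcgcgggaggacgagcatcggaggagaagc
Zim1 promoter: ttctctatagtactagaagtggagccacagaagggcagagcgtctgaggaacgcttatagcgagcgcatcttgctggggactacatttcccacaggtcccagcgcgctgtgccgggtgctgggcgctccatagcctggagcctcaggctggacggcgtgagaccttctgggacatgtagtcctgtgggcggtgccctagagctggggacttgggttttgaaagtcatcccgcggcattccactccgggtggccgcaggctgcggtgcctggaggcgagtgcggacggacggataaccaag
The Peg3 window held 1 TGACGTCA, at position -178 from the start, and 2 CCAAT boxes, and the Zim1 window held neither. The Usp29 window overlaps that of Peg3 over 263 of 300 bases on the opposite strand, with starts 164 bases apart, so these letters are common to both. Searched on both strands, TGACGTCA was present in 1.79% of 32851 promoter windows of this length, CCAAT in 37.4%, and the E-boxes CACGTG and CAGCTG in 7.15% and 16.3%. Neither E-box was found in the Peg3, Usp29 or Zim1 window. Of the 10 members, 9 had a window in this table, H19 being the exception. Among them, the first Meg3 window also held a TGACGTCA. A match describes the letters alone.

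H19 is a maternally expressed long noncoding RNA that shares enhancers with Igf2 and is abundant in differentiating muscle. The probe set shared by H19 and Mir675 read 10.88 and 10.80 in SiBc at 10 mM, against 9.55 and 9.63 in SiBc at 1 mM. It read 11.19 and 11.36 in Scrb at 10 mM, against 10.48 and 10.53 in Scrb at 1 mM. The 4 groups did not overlap, and SiBc lay below Scrb at each glucose level. With glucose it rose by 1.25 ± 0.13 in SiBc, 2.38-fold with a limma adjusted p of 0.000647, and by 0.77 ± 0.13 in Scrb, 1.71-fold with a limma adjusted p of 0.00488.

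This probe set was also lower after knockdown. At 1 mM glucose the SiBc minus Scrb difference was -0.92 ± 0.13, or 1.89-fold lower in SiBc, with a limma adjusted p of 0.0190. That call was lost when any 1 of the 4 arrays was left out (adjusted p from 0.0812 to 0.131), with the difference still below 0. At 10 mM the difference was -0.44 ± 0.13 (limma adjusted p = 0.187), which was not called, although a limma fit with a trend and robust variances called it (adjusted p = 0.0111). The glucose response was larger in SiBc by 0.48 ± 0.18 (95% confidence interval 0.06 to 0.90), which did not pass the adjustment (limma adjusted p = 0.590). The myotube markers moved in the same comparisons, 13 of 18 being lower in SiBc at 1 mM and 10 at 10 mM. Of all genes, 1.25% were called lower at 1 mM and 0.691% at 10 mM. The part of these markers in the result was not tested.

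The genes around H19 did not all move with it. Of its 8 nearest tested neighbours, 2 were called higher with glucose in SiBc, 1 in Scrb, and 2 were called lower in SiBc at 1 mM, beside 14.5%, 13.2% and 1.25% of all genes. The glucose counts are thus near the background. Tspan32, a tetraspanin gene, changed by 1.78 in SiBc (limma adjusted p = 0.000220) and 1.12 in Scrb (0.00128), and by -0.83 with knockdown at 1 mM (0.0315). Tnnt3, which encodes the fast skeletal troponin T and is also in the myotube marker list, changed by 0.91 in SiBc (0.00990) and by -1.34 with knockdown at 1 mM (0.0181), while its 0.41 in Scrb was not called. Igf2, the fetal insulin-like growth factor, read 5.83 and 5.44 in SiBc at 10 mM, against 4.97 and 4.87 in SiBc at 1 mM. In Scrb Igf2 read 5.30 and 5.96 at 10 mM, against 5.07 and 5.46 at 1 mM, which overlap. Its change was 0.72 ± 0.25 in SiBc (limma adjusted p = 0.0794) and 0.37 ± 0.25 in Scrb (0.330), and neither was called. The SiBc change was called with the 60th percentile as filter (adjusted p = 0.0348) and with trend and robust variances (0.0393). Prr33, Mrpl23, Nctc1, Mir483 and Ins2 were not called in any of the 4 comparisons.

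Mest, a paternally expressed gene for an alpha/beta hydrolase fold protein known from growth and from expanding fat tissue, showed another pattern. It read 4.04 and 4.12 in SiBc at 10 mM, against 3.50 and 3.49 in SiBc at 1 mM. It read 3.37 and 3.08 in Scrb at 10 mM, against 3.41 and 3.26 in Scrb at 1 mM. The SiBc arrays at 10 mM stood above all others, and the Scrb arrays overlapped between glucose levels. The glucose change was 0.58 ± 0.14 in SiBc (1.50-fold, limma adjusted p = 0.0236) and -0.11 ± 0.14 in Scrb (limma adjusted p = 0.626). At 10 mM Mest was 0.85 ± 0.14 higher in SiBc than in Scrb (1.80-fold, limma adjusted p = 0.0492), against 0.16 ± 0.14 at 1 mM (limma adjusted p = 0.642). In the same 10 mM comparison 2 of the 10 fibroblast and smooth muscle markers were called higher in SiBc, beside 0.428% of all genes. These were Postn, by 1.56 (limma adjusted p = 0.0492), and Cnn1, by 2.28 (0.0242). The list went both ways, from -0.90 to 2.28 with a median of 0.15, and 0 were called lower. The part of these markers in the Mest result was not tested.

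The Mest calls stood close to the threshold. The difference between its 2 glucose responses was 0.69 ± 0.20 (95% confidence interval 0.21 to 1.17), with an unadjusted p of 0.0106 and a limma adjusted p of 0.526, which did not pass the test. The glucose call in SiBc was lost with trend and robust variances (adjusted p = 0.106) and when any 1 of its 4 arrays was left out (0.0801 to 0.117). The knockdown call at 10 mM was lost when any 1 of its 4 arrays was left out (0.104 to 0.248), without the filter (0.0841), and with trend and robust variances (0.0955). Mest was also a dim gene, with values between 3.08 and 4.12. Its neighbour Copg2, a coatomer subunit gene, changed by 0.56 in SiBc and 0.65 in Scrb with glucose (limma adjusted p = 0.0834 and 0.0537), and was not called. Of the 8 nearest tested genes around Mest, 2 were called in SiBc, both lower, and 3 in Scrb, 1 higher, beside 25.1% and 25.3% of all genes. Limma called none in the knockdown comparisons, where 1 had an unadjusted p under 0.05 at each glucose level.

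Grb10 encodes an adaptor that binds the insulin and IGF1 receptors and dampens their signal. It read 2.47 and 2.97 in SiBc at 10 mM, 2.74 and 3.0 in SiBc at 1 mM, 1.94 and 2.79 in Scrb at 10 mM, and 2.27 and 2.37 in Scrb at 1 mM. The ranges of both glucose levels overlapped within each hairpin, and some arrays lay below the olfactory receptor bound of 2.41. At 1 mM both SiBc arrays lay above both Scrb arrays. The glucose change was -0.15 (95% confidence interval -0.83 to 0.53) in SiBc and 0.04 (-0.64 to 0.72) in Scrb, and the SiBc minus Scrb difference was 0.36 at 10 mM and 0.55 at 1 mM, none of them called (limma adjusted p of 0.413 or more). The direction in Scrb was negative, -0.01, with arrays centred on their medians.

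Ndn, a paternally expressed gene for necdin, a MAGE family protein known to promote the differentiation of myoblasts, was likewise near the bound. It read 2.57 and 2.85 in SiBc at 10 mM, 2.70 and 2.79 in SiBc at 1 mM, 2.47 and 2.73 in Scrb at 10 mM, and 2.60 and 1.95 in Scrb at 1 mM. The groups overlapped in both glucose comparisons, and at 1 mM the SiBc arrays lay above the Scrb arrays. The glucose change was -0.03 (95% confidence interval -0.57 to 0.50) in SiBc and 0.33 (-0.21 to 0.87) in Scrb, and the SiBc minus Scrb difference was 0.11 at 10 mM and 0.47 at 1 mM, with no call (limma adjusted p of 0.334 or more).

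**Figure D3:**
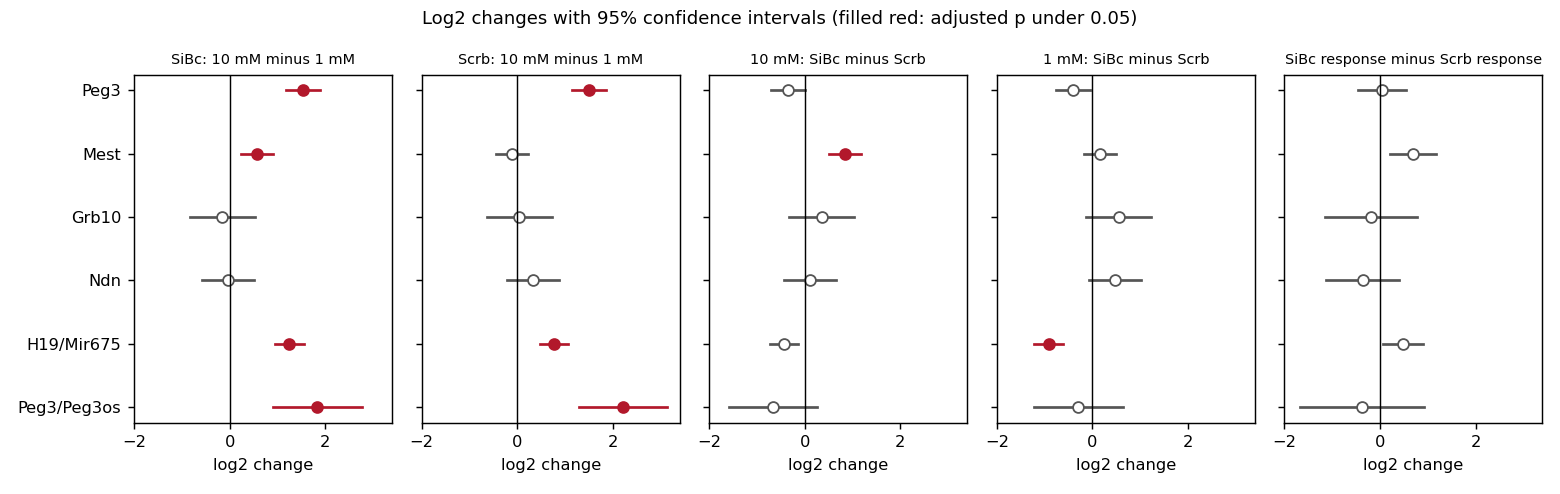
Log2 change (horizontal axis) with its 95% confidence interval from limma for the 4 tested members and 2 shared probe sets (rows), in 5 panels: glucose in SiBc, glucose in Scrb, SiBc minus Scrb at 10 mM, the same at 1 mM, and the difference between the glucose responses. Filled red points were called. Peg3, H19/Mir675 and Peg3/Peg3os are filled in both glucose panels, Mest in the SiBc glucose and 10 mM knockdown panels, H19/Mir675 in the 1 mM knockdown panel, and Grb10 and Ndn in none.

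Plagl1, which encodes a zinc-finger transcription factor known to activate other imprinted genes, and Dlk1, a transmembrane protein with EGF repeats known to restrain fat cell formation, stayed below the filter. Plagl1 read 1.94 and 1.81 in SiBc at 10 mM, 1.93 and 2.09 in SiBc at 1 mM, 1.84 and 1.70 in Scrb at 10 mM, and 1.96 and 1.93 in Scrb at 1 mM. Its second probe set read between 0.95 and 1.24. Dlk1 read 2.04 and 2.08 in SiBc at 10 mM, 1.99 and 1.57 in SiBc at 1 mM, 2.14 and 1.90 in Scrb at 10 mM, and 1.87 and 2.07 in Scrb at 1 mM. All of these lay under 2.41, the olfactory receptor bound, so these genes were not detectable above that background.

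Meg3, Rian and Mirg are maternally expressed noncoding RNAs of the Dlk1-Dio3 domain, and Mirg and Rian host many of its small RNAs. Meg3 read 1.76 and 1.50 in SiBc at 10 mM, against 1.60 and 1.39 in SiBc at 1 mM. It read 1.50 and 1.44 in Scrb at 10 mM, against 2.04 and 1.86 in Scrb at 1 mM, the only pair of Meg3 groups apart by glucose. In a fit without the filter, over 22180 genes, that Scrb change was -0.48 ± 0.16 with a limma adjusted p of 0.0972. Rian read 1.66 and 1.53 in SiBc at 10 mM, 1.88 and 2.19 in SiBc at 1 mM, 1.12 and 1.72 in Scrb at 10 mM, and 1.57 and 1.77 in Scrb at 1 mM. In the same fit no change of Meg3, Rian, Dlk1 or Plagl1 was called.

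None of the fitted shared probe sets of this domain was called in any comparison. That of Meg3 and Mir770 read between 2.14 and 2.66, on either side of the olfactory receptor bound of 2.41. That of Meg3 with the Mir1906 copies read between 2.73 and 3.50, above the bound on every array. These values cannot be assigned to Meg3 alone. That of Rian and DQ267100 read between 1.13 and 2.23. Those of Mirg with Mir134, with Mir485, and with Mir369, Mir410 and Mir412 read between 1.74 and 2.96, between 1.04 and 1.58, and between 1.39 and 1.74. Rtl1, a retrotransposon-derived gene of the same domain, was on the array only through 6 shared probe sets, with values between 0.908 and 3.67. None of the 6 was tested. That of Rtl1 and Mir432 read 1.91 and 1.80 in SiBc at 10 mM, against 2.10 and 3.67 in SiBc at 1 mM. In Scrb it read 1.74 and 1.91 at 10 mM, against 3.04 and 2.59 at 1 mM. Its change was -1.04 in SiBc and -0.99 in Scrb, while those of the other Rtl1 probe sets lay between -0.29 and 0.14. Dio3, which encodes the deiodinase that inactivates thyroid hormone, read between 1.11 and 1.63 and was not tested.

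Of 57 small RNAs listed for the Dlk1-Dio3 domain, 39 had a probe set of their own, with means between 0.900 and 3.56, and 10 passed the filter. Mir679, whose sequences are given above, was the 1 of these 10 called with glucose in SiBc, where 25.1% of all genes were called. Limma called 0 of 10 in Scrb, where 25.3% of all genes were called, and 0 of 10 in the knockdown comparisons. At an unadjusted p under 0.05 there were 0 in Scrb, 0 for knockdown at 10 mM and 2 at 1 mM. It read 2.70 and 2.44 in SiBc at 10 mM, against 2.09 and 1.94 in SiBc at 1 mM, a change of 0.56 ± 0.14 (1.47-fold, limma adjusted p = 0.0250). In Scrb it read 2.48 and 2.45 at 10 mM, against 2.53 and 2.48 at 1 mM, and the change was -0.04. The call was lost in 5 of 9 alternative settings, with adjusted p up to 0.150. All of its values lay near the olfactory receptor bound.

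The other imprinted genes give the setting for these values. Of 61 listed, 54 had their own probe set and 37 were tested. With glucose, 11 of 37 were called in SiBc (7 higher, 4 lower, 29.7%) and 10 of 37 in Scrb (6 higher, 4 lower, 27.0%), close to the 25.1% and 25.3% of all genes. The median change of the 37 was 0.11 in SiBc and 0.14 in Scrb, beside 0.03 and -0.01 for all genes tested. None of the 37 was called by limma in the knockdown comparisons, where 3 had an unadjusted p under 0.05 at each glucose level and a fit with trend and robust variances called 1 at each. None was called in the interaction, where 0 had an unadjusted p under 0.05. Of 4 other imprinted small RNAs with a probe set of their own, 2 were tested and limma called 0, with 0 at an unadjusted p under 0.05, in all 5 comparisons.

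Beside Zim1, the genes with the smallest p were mostly lower at 10 mM glucose. Ampd3, which encodes an AMP deaminase, changed by -1.12 in SiBc and -1.09 in Scrb, or 2.17-fold and 2.12-fold lower at 10 mM (limma adjusted p = 0.00120 and 0.00156). Kcnq1ot1, the long noncoding RNA of the domain that holds Cdkn1c, changed by -1.25 in SiBc and -1.19 in Scrb (0.00434 and 0.00572). Impact, whose protein restrains activation of the amino acid sensor kinase GCN2, changed by -0.90 in SiBc and -0.85 in Scrb (0.00538 and 0.00705). Atp10a, a phospholipid-transporting ATPase gene, went the other way, with 0.81 in SiBc and 1.27 in Scrb (0.0133 and 0.00233). All of these changes had the same sign in both backgrounds. The genes were named for their small p in these same comparisons, so this is no separate test. Igf2r, the receptor that clears IGF2, changed by 0.36 in SiBc and 0.17 in Scrb (0.0680 and 0.344), and Cdkn1c, a cyclin-dependent kinase inhibitor gene, by 0.07 in SiBc and 0.52 in Scrb (0.788 and 0.0568), so neither was called. Cdkn1c read between 1.95 and 2.72, on either side of the olfactory receptor bound of 2.41. The Igf2r change in SiBc was called with the 60th percentile as filter (adjusted p = 0.0339) and with trend and robust variances (0.0192).

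**Figure D4:**
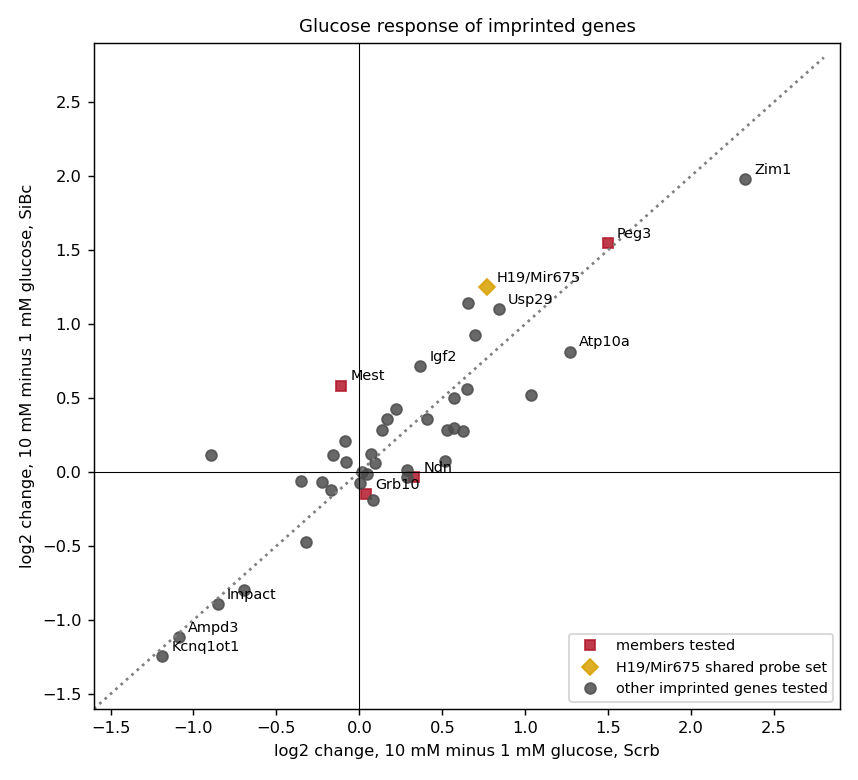
Log2 change of imprinted genes with glucose (10 mM minus 1 mM) in Scrb (horizontal axis) against the same in SiBc (vertical axis). Each point is a gene: red squares are the 4 tested members, the yellow diamond is the probe set shared by H19 and Mir675, grey circles are the 37 other imprinted genes tested, and the dotted line marks equal change. Peg3 (1.50 and 1.55) and Zim1 (2.33 and 1.98) lie furthest along the line, Ampd3 and Kcnq1ot1 at the other end, and Mest stands off it.

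Genes that read, copy or guard the methylation of imprinted regions formed the other list. Of 25 with their own probe set, 22 were tested. With glucose, 7 were called in SiBc (6 higher, 1 lower, 31.8%) and 5 in Scrb (4 higher, 1 lower, 22.7%). These shares are near the 25.1% and 25.3% of all genes, so the list as a whole does not stand out. None was called by limma in the knockdown comparisons, where 1 at 10 mM and 2 at 1 mM had an unadjusted p under 0.05. Zfp57, the zinc-finger protein that protects imprinted methylation in the early embryo, was the 1 that fell. It changed by -1.21 ± 0.16 in SiBc and -0.76 ± 0.16 in Scrb (limma adjusted p = 0.00155 and 0.0117). Dnmt1, the maintenance DNA methyltransferase, changed by 1.05 in SiBc and 0.86 in Scrb (0.00622 and 0.0150), and Uhrf1, which recruits it, by 1.14 in SiBc (0.0121) and by 0.74 in Scrb (0.0585), which was not called. Cbx5, a heterochromatin protein gene, changed by 0.87 in SiBc and 0.73 in Scrb (0.00253 and 0.00572), and Atrx, a chromatin remodeller, by 0.51 in SiBc and 0.63 in Scrb (0.0426 and 0.0200). Leaving out single arrays ended the Scrb calls of Zfp57 (without replicate 2 at 1 mM or replicate 1 at 10 mM, adjusted p up to 0.0602), Dnmt1 (without replicate 1 or 2 at 10 mM or replicate 2 at 1 mM, up to 0.0760) and Atrx (without replicate 1 or 2 at 1 mM or replicate 2 at 10 mM, up to 0.0969). It also ended the SiBc call of Uhrf1 (without replicate 2 at either glucose level, up to 0.0705).

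Across the 8 arrays, the tested genes whose values ran most like those of a member were named by Pearson's r. The 8 arrays are 2 replicates of 4 groups and are not independent of the design, so r is a description of shared pattern. For Peg3 the nearest genes were Rb1, the retinoblastoma gene (r = 0.997), and Dpt, which encodes the matrix protein dermatopontin and is in the fibroblast list (r = 0.997). Dpt changed by 2.38 in SiBc and 2.32 in Scrb with glucose, Rb1 by 0.79 in SiBc and 0.70 in Scrb. Among its own domain, r with Peg3 was 0.973 for Zim1 and 0.870 for Usp29, and it was 0.925 for H19/Mir675 and 0.819 for Igf2.

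The other tested members did not follow Peg3, unlike the probe set shared by H19 and Mir675. The r of Peg3 was 0.143 with Mest, 0.110 with Ndn and -0.209 with Grb10. Members below the filter were not compared in this way. The genes most like Mest were Tgfb1, the growth factor gene (r = 0.978), and 9930111J21Rik2 (r = 0.976). Those most like Grb10 were Sclt1 (r = 0.933) and Rasa1, a Ras GTPase-activating protein gene (r = 0.928), and those most like Ndn were Gm10139 (r = 0.965) and Caap1 (r = 0.956). Grb10 and Ndn lie near background, where a pattern over 8 arrays can rest on few bright readings.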

How the data were processed

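The authors deposited log2 expression values, made from the scanned arrays with affy and RMA, per the submitters' processing notes. Neither package versions nor the build behind the probe sets is given in the sources used here. RMA sets arrays to a common distribution and compresses differences of dim genes, and would hide a shift common to all transcripts. Deposited log2 values ran from 0.0556 to 13.6 over 41345 probe sets and 8 arrays, and array medians of tested genes from 5.89 to 6.02, so nothing was normalized again.

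Gene names came from the platform annotation: 23521 had 1 gene, 1814 several and 16010 none. A gene with several probe sets took the one with the highest mean. Shared probe sets were fitted beside the tested genes but entered no counts. limma 3.58.1 in R 4.3.3 (lmFit, eBayes without trend) used 1 mean per group over all 8 arrays, with 4 residual and 3.36 prior degrees of freedom. Tests were two-sided. The median SE of a change was 0.173, a 95% confidence interval of 0.406 to either side, which the number of arrays limits. The fit was tested on simulated data.

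The members, the gene lists and the markers were chosen with earlier results of these data known. The text names all members, the knockdown target, up to 4 called genes per list and comparison with the smallest p, Igf2, Igf2r, Cdkn1c, Rtl1 and Dio3, and the 2 genes most like each tested member. The neighbours of Peg3, H19 and Mest and the olfactory receptor bound were added after the values were seen. Deviations of same-numbered arrays correlated at -0.04 to 0.11 over 6 pairs of groups, so no strong effect shared by replicate number was seen. Whether same-numbered cultures were handled together cannot be told from these values. Promoter and microRNA sequences are from RefSeq tables of GRCm38.p6, matched by symbol. Alternatives were other filters, median centring, averaged probe sets, trend and robust variances, a replicate block and leaving out each array.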

Additional observations from a re-analysis of the deposited data

How the results depend on the processing

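The glucose responses of Peg3, Zim1, Ampd3, Atp10a (Scrb), Impact (SiBc), Kcnq1ot1 and Cbx5 kept their call and direction in every alternative in which they were tested. Those of H19/Mir675 in both backgrounds, of Peg3/Peg3os in Scrb, and of Zfp57, Dnmt1 and Chpf2/Smarcd3 in SiBc did so too. Peg3 ranged from 1.43 to 1.66 in SiBc and from 1.40 to 1.59 in Scrb. The calls of Zfp667, Zfp28, Postn, Cnn1, Tspan32 and Tnnt3, and those of Atrx and Atp10a in SiBc, were not re-run in the alternatives. Among the results re-run, glucose calls lost in at least 1 alternative were those of Mest, Mir679, Usp29, Peg3/Peg3os and Uhrf1 in SiBc. In Scrb they were those of Zfp57, Dnmt1 and Atrx. Knockdown calls lost were those of Mest and Chpf2/Smarcd3 at 10 mM and H19/Mir675 at 1 mM. That of Chpf2/Smarcd3 at 10 mM was lost without any 1 of its 4 arrays (-2.28 to -1.68, adjusted p = 0.0520 to 0.121). Over all genes, leaving out 1 array gave 1903 to 2464 calls for glucose in SiBc and 2044 to 2331 in Scrb, where all arrays gave 3342 and 3372. It gave 0 to 11 calls for knockdown at 10 mM and 30 to 111 at 1 mM, where all arrays gave 149 and 198. For the other imprinted genes it gave 5 to 9 in SiBc and 5 to 7 in Scrb, against 11 and 10. The knockdown count at 10 mM was 69 without a filter, 291 with the 60th percentile as filter and 467 with trend and robust variances. At 1 mM it was 437 and 599 under the last 2 of these. With trend and robust variances 1 gene was called for the interaction and 1 other imprinted gene in each knockdown comparison, and the 60th percentile filter also gave 1 at 10 mM. The cause of these shifts was not tested.

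With the replicate number as a block, 73 genes were called for knockdown at 10 mM, 134 at 1 mM, 3102 for glucose in SiBc and 3111 in Scrb. The block ended the call of Mest at 10 mM (adjusted p = 0.0815). Whether the numbers pair the arrays could not be told, so how much weight the lower counts carry was not settled.

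Directions turned only for changes that were never called. Median centring gave -0.0081 for Grb10 with glucose in Scrb and -0.0226 for Cdkn1c in SiBc. Leaving out 1 array, Grb10 ranged from -0.38 to 0.47 with glucose in Scrb, from -0.40 to 0.10 in SiBc, from -0.0684 to 0.78 with knockdown at 10 mM and from -0.62 to 0.23 in the interaction. Ndn ranged from -0.18 to 0.11 with glucose in SiBc and from -0.0340 to 0.25 with knockdown at 10 mM, Mest from -0.25 to 0.0352 with glucose in Scrb, and Cdkn1c from -0.0570 to 0.20 in SiBc. The interaction ranged from -0.0630 to 0.16 for Peg3 and from -0.91 to 0.16 for Peg3/Peg3os, and the knockdown change of Peg3/Peg3os at 1 mM from -0.82 to 0.24.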
